A study of Homo sapiens with 36 samples.

Results

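The sites described here are stretches of the human genome at which PAR-CLIP clusters recurred in RNA taken before any pull-out. PAR-CLIP clusters are short regions where reads carry T→C transitions. These become more frequent where a protein is crosslinked to RNA labeled with 4-thiouridine (4SU). Same-strand clusters of the 9 input lists of the study were merged wherever they shared 1 nt or more, which gave 28140 regions. The sites were chosen by the number of input lists with a cluster in the region, and 4241 regions (15.1%) had clusters from at least 5 of the 9 lists. They are called recurrent input sites below. A list "held" a site if at least 1 of its clusters overlapped the site on the same strand.

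The data were 18 cluster lists from Flp-In T-REx HEK293 cells, an established human embryonic kidney line, with 3 replicates each of the input and the FLAG IP of 3 lines. The first line expressed FLAG-SCAF4 and the second FLAG-SCAF8, both under a doxycycline-inducible promoter, in cells that also kept the untagged proteins. The third was the parental line, which has no tag, and its FLAG IP served as the control IP. Overnight labeling with 100 μM 4SU was followed in all lines by 500 μM 4SU for 2 h and by crosslinking with 365 nm light at 2000 J/m2. For both tagged lines the labels give 100 ng/mL doxycycline overnight, whereas the methods give another dose, and give it for the parental line too. All lines were labeled as wild type for CRISPR status. The methods speak of biological replicates without saying how the cultures were separated, so that p-values measure only the spread between these lists. Of the HEK293 markers looked for, LIN28B had 31 clusters over 11 lists and NEFL 10 clusters over 5 lists, while NEFM and PAX2 had none. Markers of liver, blood, T cells and heart muscle (ALB, PTPRC, HBB, CD3E and MYH7) had no cluster in any list, and no marker carried a recurrent input site.

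The input lists held 4567 to 12493 clusters, the SCAF4 and SCAF8 IP lists 18287 to 54404, and the control IP lists 9638, 2314 and 1621 for replicates 1 to 3. Per the study's methods replicate 1 was sequenced with longer reads than replicates 2 and 3. The lists give no read counts, so the depth behind a cluster is unknown.

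An input sample of PAR-CLIP is taken before the pull-out. It holds RNA crosslinked to any RNA-binding protein of the cell and also RNA that was not crosslinked. Per the paper, crosslinking raises the frequency of the misincorporation behind T→C transitions, so labeled RNA without a crosslink may also give some. Abundant and structured RNAs, such as rRNA, tRNA and spliceosomal snRNA, are bound by many proteins and are commonly met as background in CLIP experiments. SCAF4 and SCAF8 are related nuclear proteins that bind the phosphorylated C-terminal domain (CTD) of RNA polymerase II (RNAPII) and RNA. Input and control IP clusters were used in the study as background, and the question here is what such recurrent sites are and how far the IP lists hold them too.

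Sequences of sites on which the results turn are given from GRCh38, 5′ to 3′ on the strand of the clusters. The first set shows tRNA genes, the largest class of small RNA among the sites. All histidine tRNA genes had a site, whereas few alanine and valine tRNA genes did. Capitals mark the letters GTTCNA of the T loop, which lie in the internal promoter of tRNA genes. The genes are a histidine tRNA at chr1:146038044-146038115 (plus strand), an alanine tRNA at chr6:28802800-28802870 (minus strand) and a valine tRNA at chr5:181218270-181218342 (minus strand).
TRH-GTG1-1: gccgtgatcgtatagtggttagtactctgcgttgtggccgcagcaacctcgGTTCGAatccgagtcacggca
TRA-TGC7-1: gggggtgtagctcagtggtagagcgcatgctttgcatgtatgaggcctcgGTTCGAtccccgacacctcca
TRV-AAC1-4: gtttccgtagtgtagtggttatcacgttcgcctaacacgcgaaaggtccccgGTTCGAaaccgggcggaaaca

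The second set shows sites that stand for the patterns described below, and capitals mark bases covered by clusters of at least 5 input lists. RNU4ATAC, at chr2:121530881-121531018 (plus strand), encodes a minor spliceosomal snRNA and was held by no IP list. The stretch of a DAZAP1 intron, at chr19:1423794-1424013 (plus strand), comes from the gene with the most sites. Intronic stretches of HNRNPDL, at chr4:82428644-82428863 (minus strand), and ANAPC7, at chr12:110401077-110401298 (minus strand), were held by all 9 inputs and all 6 SCAF4 and SCAF8 IP lists but no control IP list. Among IP lists, only control lists held the ANKRD30BL site, at chr2:132255231-132255409 (minus strand). The SCAF4 coding exon, at chr21:31693278-31693486 (minus strand), belongs to a gene that was itself introduced as a tagged copy.
RNU4ATAC: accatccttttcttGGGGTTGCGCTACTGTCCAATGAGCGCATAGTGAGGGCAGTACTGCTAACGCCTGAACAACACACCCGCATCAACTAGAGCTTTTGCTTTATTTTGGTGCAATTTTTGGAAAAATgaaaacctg
DAZAP1 intron: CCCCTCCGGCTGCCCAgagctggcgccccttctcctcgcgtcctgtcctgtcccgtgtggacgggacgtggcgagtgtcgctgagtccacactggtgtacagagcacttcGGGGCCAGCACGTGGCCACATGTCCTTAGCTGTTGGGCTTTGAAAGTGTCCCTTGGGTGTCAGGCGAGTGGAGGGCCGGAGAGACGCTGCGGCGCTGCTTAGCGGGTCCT
HNRNPDL intron: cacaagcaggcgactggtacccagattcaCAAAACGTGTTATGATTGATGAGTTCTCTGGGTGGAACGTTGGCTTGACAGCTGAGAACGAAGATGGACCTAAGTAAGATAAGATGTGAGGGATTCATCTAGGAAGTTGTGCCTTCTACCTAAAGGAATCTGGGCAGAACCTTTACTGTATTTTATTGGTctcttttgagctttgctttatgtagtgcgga
ANAPC7 intron: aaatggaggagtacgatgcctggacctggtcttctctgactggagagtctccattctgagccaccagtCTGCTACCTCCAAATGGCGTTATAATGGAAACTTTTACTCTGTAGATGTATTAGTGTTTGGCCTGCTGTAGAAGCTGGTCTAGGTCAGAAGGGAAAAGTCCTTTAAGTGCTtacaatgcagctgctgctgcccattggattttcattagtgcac
ANKRD30BL intron: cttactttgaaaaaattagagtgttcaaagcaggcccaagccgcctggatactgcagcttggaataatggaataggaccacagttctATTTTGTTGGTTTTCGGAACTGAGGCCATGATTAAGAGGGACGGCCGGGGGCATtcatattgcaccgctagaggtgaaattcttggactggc
SCAF4 coding exon: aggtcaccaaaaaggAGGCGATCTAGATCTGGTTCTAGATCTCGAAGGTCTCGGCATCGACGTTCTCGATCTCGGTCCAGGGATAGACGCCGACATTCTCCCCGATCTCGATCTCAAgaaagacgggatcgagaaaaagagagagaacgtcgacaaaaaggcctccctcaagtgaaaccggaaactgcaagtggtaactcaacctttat

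Among all merged input regions, 14684 had a cluster in 1 list only, 5039 in 2, 2576 in 3 and 1600 in 4. Numbers fell further to 1205 regions in 5 lists, 860 in 6, 707 in 7 and 588 in 8, but 881 regions had clusters in all 9. Of the recurrent sites, 4021 (94.8%) had clusters from inputs of all 3 lines. In detail, 83 had none from a FLAG-SCAF4 input, 37 none from a FLAG-SCAF8 input and 100 none from a parental input. All 3 inputs of replicate 1 held 2607 sites, against 1689 for replicate 2 and 1641 for replicate 3.

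Recurrent sites had a median length of 235 nt (quartiles 171 and 354), compared with 129 nt for regions of 1 list. Merging over more lists can only lengthen a region, so that length depends on the rule. In 4115 sites (97.0%) at least 1 base was covered by clusters from 5 lists, and the longest such stretch had a median of 122 nt. In 126 sites the clusters formed a chain without such a base. Only 85 sites exceeded 1 kb, the longest being 14991 nt of the lncRNA XIST, 7049 nt of the lncRNA MALAT1 and 6339 nt of SRRM2, which encodes a spliceosome protein.

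Just inside the limit, the longest sites of exactly 5 lists were 1470 nt of the SCAF8 gene (1 FLAG-SCAF4, 3 FLAG-SCAF8 and 1 parental input) and 1080 nt of CASP8AP2 (3 FLAG-SCAF8 and 2 parental inputs). In the SCAF8 site a stretch of 160 nt was covered by all 5 lists, whereas the CASP8AP2 site was a chain without such a base. Just outside the limit, the longest regions of exactly 4 lists were 849 nt of GOLGA8B and 744 nt of the 3′ UTR of IRS4.

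The IP lists were not used to choose the sites, but inputs of the same lines were, and most of these came from the tagged lines. Parental inputs held 86.5%, 60.7% and 62.0% of the sites in replicates 1 to 3. FLAG-SCAF4 inputs held 88.0%, 69.2% and 65.7%, and FLAG-SCAF8 inputs 74.7%, 87.3% and 84.2%. Whether this choice moved the difference between the kinds of IP was not tested. SCAF4 IP lists held 81.4%, 96.3% and 88.7% of the sites in replicates 1 to 3, and SCAF8 IP lists held 88.7%, 83.4% and 95.9%. Control IP lists held 73.3%, 34.9% and 23.8%. Every SCAF4 and SCAF8 IP list therefore held more of the sites than any control IP list.

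At least 2 of 3 SCAF4 IP lists held 3937 sites (92.8%), where the background over all merged input regions was 50.1%. The same criterion gave 3970 sites (93.6%, background 47.7%) for SCAF8 IP and 1644 sites (38.8%, background 7.54%) for control IP. For all 3 kinds of IP, the share of recurrent sites held was above that of all input regions. All 6 SCAF4 and SCAF8 IP lists held 2745 sites (64.7%, background 19.2%).

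All 9 IP lists held 645 sites (15.2%, background 2.43%), and 415 sites were in all 18 lists of the study (background 1.47%, all of them recurrent sites by the rule). No IP list held 5 sites (0.118%, background 20.2%). A further 310 sites (7.31%, background 5%) were in all 6 SCAF4 and SCAF8 IP lists and in no control IP list. No control IP list held 966 sites (22.8%, background 72.5%), and only 1 site was held by at least 2 control IP lists and by no SCAF4 or SCAF8 IP list (background 0.00711%).

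The share held rose with the number of input lists. Of regions with clusters in 1 input, single SCAF4 and SCAF8 IP lists held 31.1% on average and control IP lists 3.52%. Of regions in all 9 inputs they held 98.6% and 75%. The values of both tagged lines approached each other toward 9 inputs, whereas control IP replicates 2 and 3 stayed below control IP replicate 1 at every number of inputs.

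**Figure D1:**
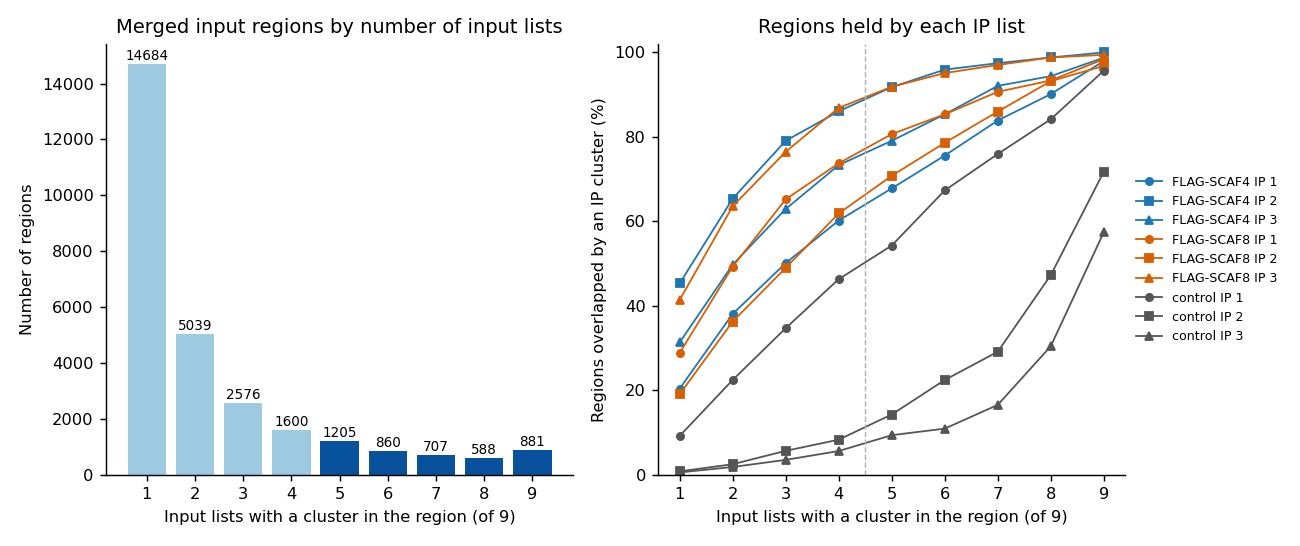
Left, number of merged input regions (bars, y axis) by the number of input lists with a cluster (x axis), with the 4241 recurrent sites in dark blue. Right, percentage of the regions held by each IP list (1 line per list, marker by replicate), which rises from a mean of 31.1% to 98.6% for the 6 lists of tagged proteins and from 3.52% to 75% for the 3 control IP lists; the dashed line marks the limit of 5 lists.

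The 6 SCAF4 and SCAF8 IP lists held 89.1% ± 6.15 (SD, n = 6) of the recurrent sites and the 3 control IP lists 44% ± 26.0 (SD, n = 3). The difference of 45.1 percentage points had p = 0.0119 by a two-sided exact permutation test over 84 splits of the lists, the smallest p this design allows (0.0476 after Benjamini-Hochberg adjustment over 8 tests). It was 11.8 points in replicate 1 and 61.7 points in replicates 2 and 3. The lengths of the lists moved with it. When every IP list was cut to its 1621 highest-scoring clusters, the length of the shortest, control IP lists held more of the sites. The difference then turned to −10.9 points (exact permutation p = 0.0119). This cut relied on a score without stated meaning, left control IP replicate 3 whole, and left no list with more than 24.0% of the sites. At equal length, sites held and clusters lying in sites, given below, are not separate results. With only clusters that reached the median score of their list, the difference in sites held was 27.4 points (exact permutation p = 0.0119). SCAF4 and SCAF8 IP lists differed by −0.558 points (SCAF4 minus SCAF8, exact permutation p = 1), which is less than the spread between replicates, and 3 lists against 3 could not give a p below 0.1.

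Seen from the lists, recurrent input sites took up a small part of the IP lists of both tagged proteins and, in replicates 2 and 3, most of the control IP lists. Of the clusters of SCAF4 IP lists 21.0%, 8.93% and 13.1% lay in a recurrent site, and of SCAF8 IP lists 17.5%, 23.1% and 11.8%. Of the control IP clusters 37.3%, 73.4% and 72.4% did so, with no overlap between the groups. The difference was −45.1 points (exact permutation p = 0.0119, adjusted p = 0.0476), with −18.1 points in replicate 1, −58.7 points in replicates 2 and 3, and −34.2 points with lists of equal length. At or above the median score it was −15.8 points (exact permutation p = 0.0119). With the replicate number as a block, this difference and that in sites held had p = 0.037 (exact permutation) and an adjusted p = 0.0593. This p is the smallest that the 27 relabellings of the block allow. The blocked tests could therefore not pass the threshold after adjustment, whatever the values. Among merged IP regions found in at least 2 of 3 replicates, 4114 of 29539 SCAF4 regions (13.9%) and 4182 of 21300 SCAF8 regions (19.6%) overlapped a recurrent site, as did 1734 of 2269 control regions (76.4%).

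Within each SCAF4 and SCAF8 IP list, the share of recurrent sites held exceeded the share of single-list regions held, by 58.0 points ± 4.80 (SD, n = 6, exact sign-flip permutation p = 0.031, adjusted p = 0.05, which is not below the threshold of 0.05). This p is the smallest that 6 lists allow, and the difference was above 0 in 6 of 6 lists. In control IP lists it was 40.5 points ± 21.2 (SD, n = 3), above 0 in 3 of 3 lists (exact p = 0.25, the smallest possible). The rise was 17.5 points larger in SCAF4 and SCAF8 IP lists, which did not pass the threshold (exact permutation p = 0.0714). A region found in many inputs of the same cells is more likely to recur in a further list. The direction of the rise was thus largely set by the rule, and its p-value gives no separate support. Recurrent sites were also longer. With the middle 50 nt of each region the rise was 54.8 points in SCAF4 and SCAF8 IP lists and 36.6 in control IP lists. The lengths of the lists moved with these values too. With IP lists of equal length the rise was 9.21 points in SCAF4 and SCAF8 IP lists and 21.0 points in control IP lists, so that the difference turned to −11.8 points (exact permutation p = 0.0119, not adjusted).

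By annotation, 901 recurrent sites (21.2%) had their midpoint in a coding exon, 788 (18.6%) in a 3′ UTR, 60 in a 5′ UTR and 838 (19.8%) in an exon of a noncoding isoform or gene. Introns held 1292 sites (30.5%). Of regions in 1 input list, 16.7% lay in coding exons, 14.2% in 3′ UTRs, 9.13% in noncoding exons and 51.4% in introns. Recurrent sites thus had a larger exonic and a smaller intronic share, a description without a test because regions of a gene are not independent. Of the noncoding exon sites, 557 lay in protein-coding genes whose longest isoform has no coding sequence, and 391 of these overlapped coding sequence of another isoform.

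**Figure D2:**
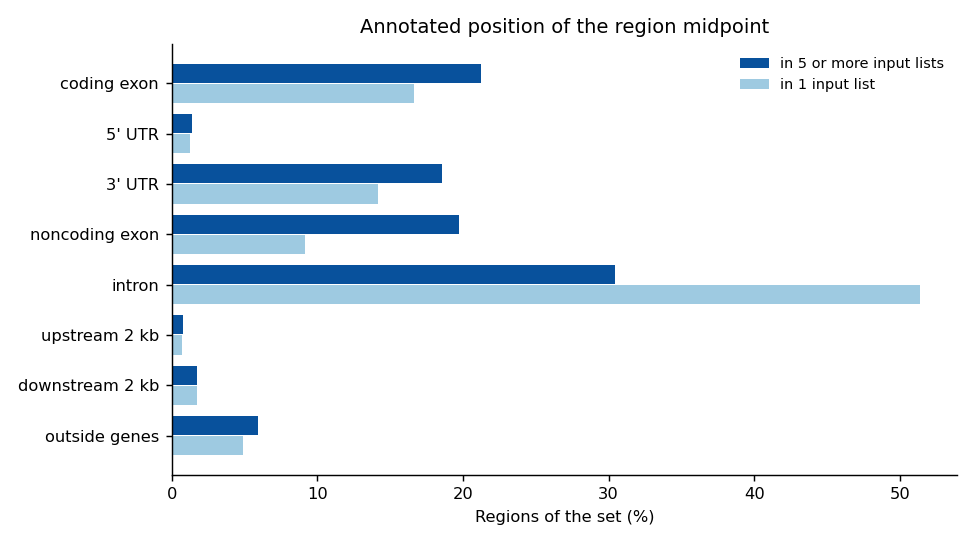
Percentage of regions (x axis) with the midpoint in each annotated feature (y axis) for regions in at least 5 input lists (dark) and in 1 input list (light). Introns hold 30.5% of the recurrent sites and 51.4% of single-list regions, and noncoding exons 19.8% and 9.13%.

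Many intronic sites lay close to exons. Of 1075 sites in introns of protein-coding genes, not counting those over small RNA genes, 272 (25.3%) had the midpoint in an exon of another isoform, against 12.8% of such regions in 1 input list. Within 500 nt of an exon lay 42.5% of these sites and 30.4% of the single-list regions. Exonic sites crossed the end of their exon in 36.4% of cases, against 18.5% for single-list regions, but recurrent sites are also longer.

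Exonic sites were held more often than intronic ones in each of the 6 SCAF4 and SCAF8 IP lists, by 7.96 points ± 6.65 (SD, n = 6, exact sign-flip permutation p = 0.031, adjusted p = 0.05, not below the threshold). This p is the smallest that 6 lists allow, so the adjusted p could not fall below the threshold. The difference was 15.9 points in replicate 1 and 3.97 points in replicates 2 and 3. In control IP lists it was 10.9 points ± 9.65 (SD, n = 3, exact p = 0.5, with 0.25 the smallest possible) and above 0 in 2 of 3 lists. The effect did not differ detectably between the kinds of IP (exact permutation p = 0.595). SCAF4 and SCAF8 IP clusters in recurrent sites ranked lower by the deposited score than the other clusters of their list. The mean difference was −2.44 percentile points ± 1.45 (SD, n = 6, exact p = 0.031, again the smallest possible, adjusted p = 0.05, not below the threshold). With clusters below the median score left out, the direction turned, to 14.1 percentile points (exact p = 0.031, adjusted p = 0.0625), and the score has no stated meaning.

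Genes of stable small RNAs were recurrent sites more often than input regions in coding exons, 3′ UTRs and introns. All but 1 of the 18 merged regions over 5S rRNA were recurrent (94.4%), as were 35 over the 45S rRNA precursor (68.6% of its regions) and 208 over tRNA genes (63.4%). There were 39 sites over snRNA genes (63.9%), 49 over snoRNA or scaRNA genes (38.3%), which guide the modification of rRNA and snRNA, and 23 over 7SL, 7SK, Y, vault, RMRP and RPPH1 RNA genes and their copies (51.1%). By contrast, 16.3% of regions in coding exons, 17.3% of those in 3′ UTRs and 9.52% of those in introns of protein-coding genes were recurrent, in classes that leave out sites over small RNA genes, histone genes and copies. A high share was not particular to small RNA genes. Of regions in histone genes 51.3% were recurrent, and of those on nuclear copies of mitochondrial sequence 54.2%.

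Small RNA classes were also held more than introns and 3′ UTRs by the control IP, in which at least 2 of 3 lists held 17 of 17 sites over 5S rRNA, 32 of 35 over 45S rRNA (91.4%), 31 of 39 over snRNA (79.5%) and 108 of 208 over tRNA (51.9%). They held 46.7% of the sites in coding exons, 30.2% in 3′ UTRs and 25.9% in introns of protein-coding genes. At least 2 of 3 SCAF4 IP lists held 99.8% of the coding exon sites, 88.8% of the 3′ UTR sites and 90.3% of the intron sites, and at least 2 of 3 SCAF8 IP lists held 98.1%, 93.4% and 90.5%. tRNA was the small RNA class least held by them, with 86.1% for SCAF4 and 83.2% for SCAF8. Shares of the classes are descriptions, and no difference between classes was tested here.

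**Figure D3:**
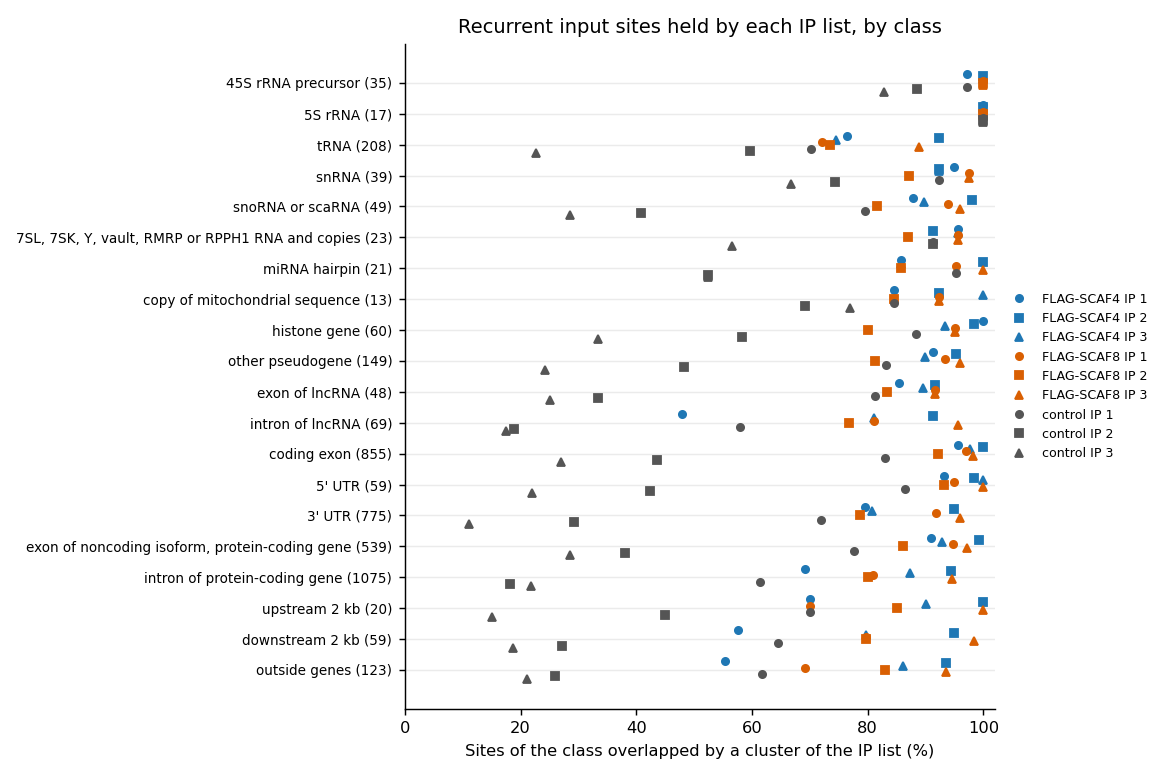
Percentage of recurrent input sites of a class (y axis, number of sites in parentheses) held by each IP list (x axis, 1 point per list, colour by line, marker by replicate). All 9 IP lists held every 5S rRNA site, while control IP replicates 2 and 3 lie at the left for introns, 3′ UTRs and sites outside genes.

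Of 49 genes annotated as snRNA in which a cluster had its midpoint, 20 (40.8%) had a recurrent site. Among the spliceosomal RNAs, sites held by all 18 lists lay over RNU1-2, RNU1-3 and RNU1-4 (U1), RNU2-1 and RNU2-2P (U2), RNU5A-1 and RNU5B-1 (U5) and RNU11 (a minor spliceosomal snRNA). RNU4-2 (U4) had clusters in 7 input lists, in all 6 SCAF4 and SCAF8 IP lists and in 1 control IP list, while RNU4ATAC was in no IP list. None of the snRNA sites lay over a gene named as U6. RN7SK, which holds the kinase P-TEFb inactive, RN7SL1, RN7SL2 and RN7SL3 of the signal recognition particle, and RNY1 and RNY4 were in all 18 lists. RMRP and RPPH1, RNA subunits of endonucleases, lacked 1 control IP list each. Of the U3 genes, which act in rRNA processing, SNORD3A, SNORD3B-1 and SNORD3D were in all 18 lists. Such genes have near-identical copies, so the copy that a read came from is uncertain.

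Of 443 tRNA genes in the RefSeq table, 208 overlapped a recurrent site and 328 any merged input region. The whole gene lay inside the site in 201 cases. All 208 had sites on 1 strand only, and GTTCNA was present on that strand in 208 of 208 and on the other strand in 19, while it occurred in 6.93% of 100 nt windows at all merged regions. The deposited strand of these sites was therefore the one with the T loop letters.

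Glutamate and histidine tRNA genes all had a recurrent site, with 15 of 15 and 9 of 9. Arginine followed with 23 of 26, tyrosine with 11 of 13, phenylalanine with 9 of 11 and glutamine with 15 of 19. At the other end, sites were found at 4 of 20 threonine, 5 of 33 alanine, 4 of 28 valine, 4 of 29 cysteine and 1 of 13 aspartate tRNA genes. Genes with an identical copy elsewhere had a site in 116 of 220 cases (52.7%) and genes of unique sequence in 92 of 223 (41.3%). Among 56 sets of identical genes, every copy had a site in 22, no copy in 20 and only some in 14, and the lists do not tell which copy was transcribed.

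Of the 15 glutamate tRNA sites, SCAF4 IP lists held 12, 15 and 15, SCAF8 IP lists 12, 14 and 14, and control IP lists 13, 12 and 7. Of the 23 arginine sites, SCAF4 IP lists held 22, 22 and 21, SCAF8 IP lists 20, 18 and 23, and control IP lists 17, 18 and 9. For both amino acids control IP replicate 3, the shortest list, held the fewest. Of the 11 tyrosine sites this list held 1, compared with 11 and 10 in the other control IP lists.

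**Figure D4:**
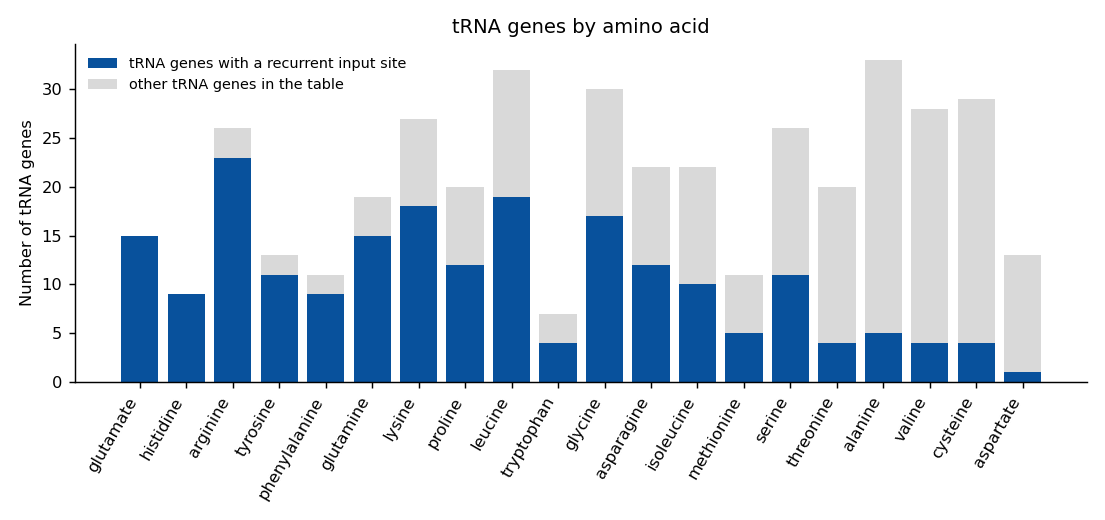
Number of tRNA genes in the RefSeq table (bar height, y axis) for each amino acid (x axis), with genes at a recurrent input site in dark blue and the others in grey. Glutamate (15 of 15) and histidine (9 of 9) are complete, while aspartate has 1 of 13.

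Repeated sequence was common among the sites. An exact run of 50 nt was shared with another merged input region by 843 recurrent sites (19.9%), by 4.32% of single-list regions and by 7.70% of all. It was shared by 155 of the tRNA sites (74.5%), 33 of the snRNA sites (84.6%) and 122 of 149 pseudogene sites (81.9%), but by 11% of coding exon sites and 9.67% of sites in introns of protein-coding genes. Outside the 45S genes, 35 recurrent sites held a run of 25 nt of the 45S precursor, among them intronic sites in HFM1, AAMDC and PDE3A that were in all 18 lists. No list had a cluster on the mitochondrial genome, while 13 sites lay on nuclear copies of mitochondrial sequence, such as MTCO1P12.

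The sites had their midpoint in the body of 1962 genes, 17.1% of the 11443 genes with the midpoint of a cluster of any list. A single site was found in 1225 genes, and 156 genes with at least 5 sites held 1178 sites. Of 1355 windows of 500 kb with a site, 216 held at least 50% of all sites. The fullest was the rDNA window chr21:8000001-8500000 with 45 sites, followed by chr19:1000001-1500000 with 34, of which 25 were in DAZAP1, and chr19:34000001-34500000 with 34, of which 13 were in GPI and 10 in LSM14A.

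DAZAP1, an RNA-binding protein of splicing, had 25 recurrent sites among 52 merged input regions, more than any other gene. Of these, 20 were intronic by the longest isoform, and 12 lay in introns of all isoforms. All 9 inputs held 5 of them. SCAF4 IP lists held 20, 25 and 25 of the sites, SCAF8 IP lists 23, 24 and 24, and control IP lists 17, 6 and 9. The control lists were lower than all SCAF4 and SCAF8 IP lists here too. The other 5 sites lay in exons of that isoform, which has no coding sequence in the annotation.

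**Figure D5:**
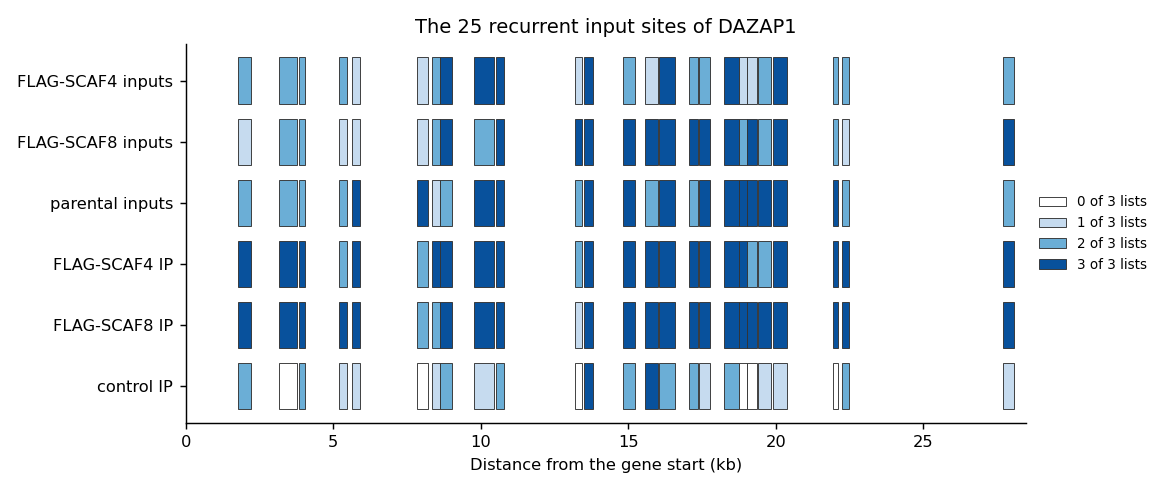
Position of the 25 recurrent input sites of DAZAP1 (x axis, distance from the gene start in kb) in the inputs and IPs of each line (rows), with shading by the number of the 3 replicate lists that held the site. The SCAF4 and SCAF8 IP rows are mostly at 3 of 3 lists, while the control IP row ranges from 0 to 3.

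Several of the other genes with most sites encode proteins of RNA processing. HNRNPU, a nuclear RNA-binding protein, had 17 sites, of which SCAF4 IP lists held 16, 17 and 15, SCAF8 IP lists 17, 15 and 17, and control IP lists 14, 4 and 4. The RNA helicase gene DDX17 had 15, all held by each of the 6 SCAF4 and SCAF8 IP lists, with 12, 3 and 8 in control IP lists. SFPQ, a paraspeckle and splicing protein, had 14, and RBM39, a splicing factor, 13. HNRNPA2B1 and SF3B3, a U2 snRNP subunit, had 12 each. SSU72, a phosphatase of the RNAPII CTD, had 15 sites, of which SCAF4 IP lists held 13, 15 and 15, SCAF8 IP lists 9, 13 and 15, and control IP lists 11, 3 and 1.

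Genes of other roles were among them. The cohesin gene SMC1A had 17 sites, with 6 in coding exons and 9 in the 3′ UTR. ZNF146, a zinc finger gene, had 16, of which 12 were intronic, and the glycolytic gene GPI had 13, of which 12 were intronic. The proliferation marker MKI67 had 12, of which 8 were in coding exons. The 14 sites of CCDC200 lay in introns that span an array of U2 snRNA genes, the 20 of ENSG00000280441 in introns over rDNA, and the 13 of NPIPB5 in a gene family of near-identical copies, so that their host genes are uncertain as a source of the reads.

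For comparison with the gene lists below, recurrent sites were found in 1670 of 9467 (17.6%) of all protein-coding genes with a cluster. They were found in 22 of 23 hnRNP genes (119 sites), 14 of 16 SR splicing factor genes (57 sites), 65 of 82 ribosomal protein genes (148 sites) and 42 of 57 histone genes (59 sites). They were also found in 18 of 21 translation factor genes, 16 of 22 chaperone genes, 14 of 15 cytoskeleton and glycolysis genes and 14 of 17 genes of nucleolar and chromatin proteins. Of 29 genes of very long coding sequence 14 had a site, and of 15 genes of RNAPII and CTD-binding proteins 7. Of 900 lncRNA genes with a cluster 80 (8.89%) had a site, but of 18 named noncoding RNAs 13, including 11 sites in NEAT1 and 7 in TUG1.

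The control IP, again by 2 of 3 lists, held 46 of the 119 hnRNP gene sites, 21 of the 57 SR gene sites, 71 of the 148 ribosomal protein gene sites and 32 of the 59 histone gene sites. The SCAF4 IP held 116, 56, 145 and 58 of them, and the SCAF8 IP 115, 53, 144 and 56. Over all recurrent sites the shares were 38.8% for the control IP, 92.8% for the SCAF4 IP and 93.6% for the SCAF8 IP, and those of the hnRNP and SR genes were near them.

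Among the sites in all 9 inputs and all 6 SCAF4 and SCAF8 IP lists but no control IP list, the longest were 648 nt of TRA2B, 439 nt of WTAP and 391 nt of HNRNPDL. TRA2B is a splicing activator, WTAP belongs to the m6A writer complex, and HNRNPDL is an hnRNP protein. The TRA2B and WTAP sites were intronic by the longest isoform but had their midpoint in an exon of another one, whereas the HNRNPDL and ANAPC7 sites, printed above, overlapped no annotated exon of the gene. In HNRNPDL the neighboring coding exon site of 264 nt was in all 18 lists, so that neighboring sites of 1 gene differed in the control IP. Absence from the control IP lists may depend on their length, which was not tested. HNRNPH1, RPS23, DCAF8, COPS9 and POLR2E, which encodes an RNA polymerase subunit, gave further sites of this kind.

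No IP list held 5 sites. RNU4ATAC had clusters in 2 FLAG-SCAF4, 2 FLAG-SCAF8 and 3 parental inputs. The others, of 5 inputs each, were 292 nt of the 3′ UTR of MRPL42, 282 nt of an intron of the lncRNA DLEU2, and regions outside genes at chr7:142667496-142667611 and chr5:32617294-32617407. The ANKRD30BL site, the only one in at least 2 control IP lists without SCAF4 or SCAF8 IP clusters, had 170 of 179 bases (95%) identical to bases 799 to 977 of 18S rRNA.

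The genes of the tagged proteins require care, because cells of these lines also carry a transgene with their coding sequence. SCAF4 coding sequence had 15, 16 and 17 clusters in FLAG-SCAF4 inputs, against 1, 2 and 4 in FLAG-SCAF8 inputs and 2, 0 and 1 in parental inputs. SCAF8 coding sequence had 11, 16 and 16 clusters in FLAG-SCAF8 inputs, against 0, 0 and 1 in FLAG-SCAF4 inputs and 1, 0 and 0 in parental inputs. Each coding sequence had the most clusters in inputs of the line that expressed it, without overlap. The 3 recurrent sites of SCAF4 were all coding and each had clusters of all 3 FLAG-SCAF4 inputs, and the coding site of SCAF8 had clusters of all 3 FLAG-SCAF8 inputs. The endogenous gene and the transgene cannot be told apart in the lists.

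By sequence, the 100 nt around the midpoint of recurrent sites had a median of 27% T and 47% GC, against 28% and 44% in single-list regions. CGG was present in 43.4% of these windows and CGA in 41.6%, against 32.8% and 30.2% for single-list regions, and TTTTT in 15.3% against 18.8%. Within introns CGG was at 36.9% against 26.6%, and within coding exons at 51.4% against 49.0%, so that the contrast in CGG was smaller between sites of the same feature in coding exons. CGG on the opposite strand was present in 41.5% of recurrent windows, and no test was made. In the windows of all merged regions CGG was at 35.7%, CGA at 33.0% and TTTTT at 17.6%. GTTCGA, which is a form of the T loop letters, was present in 4.74% against 0.701% of single-list windows (1.44% of all). The other motifs searched were nearer to each other in both sets. CTCC was present in 29.0% against 27.0%, CACC in 22.1% against 20.4%, CCAGC in 9.67% against 8.88% and CCAGG in 13.7% against 12.4%. GCAGC was present in 10.6% against 9.70%, GCAGG in 12.4% against 11.6% and AATAAA in 3.87% against 4.53%.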

How the data were processed

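PAR-CLIP was performed on 36 libraries of HEK293-derived cells. Per the methods, the authors trimmed reads, aligned them to GRCh38 with Bowtie2 2.2.9, removed duplicates, combined the soluble and chromatin fractions of each replicate and called clusters with PARalyzer, requiring minimum numbers of reads and of T→C transitions. Each of the 18 deposited lists gives cluster positions, strand and an unexplained score of 0.501 to 1, used here only as a rank within a list. Lists precede the filters on input clusters. The aligner settings in the methods report 1 best alignment for a read that matches several places, up to a limit on their number, so the copy chosen among near-identical ones is uncertain. Start positions were read as counted from 0.

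Clusters were merged with Python 3.11.15 and annotated with GENCODE 44 by their midpoint, using the isoform of largest summed exon length. Protein-coding gene bodies came first, then other genes, then 2 kb flanks. tRNA genes were from RefSeq, rRNA genes from RefSeq and GENCODE, and other small RNA genes from GENCODE. IP lists were compared by exact permutation with scipy 1.17.1 and numpy 2.4.6, and p-values of 8 tests were adjusted by Benjamini-Hochberg. Merging was tested on simulated data and recovered 2000 of 2000 planted sites.

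The sites and gene lists were chosen with earlier results of these data known. Named were the 15 genes with the most sites, sites at the extremes of IP overlap ordered by input lists and length, the longest just inside and outside the limit, and members of the gene lists. Further small RNA genes were named after their values were seen. Alternatives changed the number of input lists, the overlap, the score limit, the merging, the length of IP lists, the exon definition and the replicates, and 2 further ones, the middle 50 nt of a region and the omission of small RNA genes and copies, were added after seeing the data, as was the difference in the rise between kinds of IP under each alternative.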

Additional observations from a re-analysis of the deposited data

How the results depend on the processing

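The number of recurrent sites fell from 4241 to 2176 when at least 7 of 9 input lists were required and to 907 with only clusters that reached the median score. Leaving out the inputs of a replicate, with fewer lists required, gave 3057 to 3979 sites. In the comparisons that follow, leaving out a replicate removed its IP lists only and kept the 4241 sites. The difference in sites held between SCAF4 and SCAF8 IP lists and control IP lists turned to −10.9 points with IP lists of equal length, and ranged from 33.4 to 61.7 points without a replicate. The share of IP clusters in sites differed by −58.7 to −37.7 points without a replicate. The difference between SCAF4 and SCAF8 IP lists changed sign, to 0.0613 points with at least 7 input lists and 2.50 points at or above the median score, and ranged from −7.25 to 2.82 points without a replicate. Recurrent sites exceeded single-list regions in SCAF4 and SCAF8 IP lists by 9.21 points with IP lists of equal length. Without a replicate they did so by 56.8 to 59.1 points. Exonic exceeded intronic sites by 5.13 points (exact permutation p = 0.0938) at or above the median score, and by 3.97 to 10.4 points without a replicate. The score rank difference turned to 14.1 at or above the median score and was −2.99 to −1.94 without a replicate. Without a replicate, too few lists remain for any of these tests to pass 0.05. The rise from single-list to recurrent regions in SCAF4 and SCAF8 IP lists minus that in control IP lists turned to −11.8 points with IP lists of equal length, and ranged from 9.96 to 28.1 points without a replicate. Of 68 values under alternatives other than leaving out a replicate, 59 kept direction and side of the threshold or stayed within 1.5 times the count. The comparison of SCAF4 with SCAF8 IP lists and the tests of differences within each list could not pass the threshold under any setting. Their values could change only in direction, so that the count of 59 does not measure robustness. The cause was not tested where the result moved.

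With the replicate number as a block, the differences of 45.1 and −45.1 points had an exact permutation p = 0.037, the smallest that 27 relabellings allow. After adjustment over the 8 tests it was 0.0593, so that neither call could have been kept, whatever the values. The difference of −0.558 points had p = 1 in the same blocked permutation. Deviations of the 9 pairs of IP lists of the same number correlated at −0.0245 to 0.146, with 1 above 0.1. The 18 pairs of different number correlated at −0.128 to 0.101. Among pairs of the same number, those of replicate 1 stood at 0.0687, 0.0710 and 0.146. The numbers were not taken as pairs in the main tests, but grouping by number was not tested. The blocked p-values therefore stand beside the main ones. Read depth is unknown, cluster calls depend on it, and a site missing from a short list may lie below its limit.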
